A study of Mus musculus with 6 samples.

Results

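The genes described here are 9 inducible feedback inhibitors of the ERK pathway: the dual-specificity phosphatases Dusp1, Dusp4, Dusp5 and Dusp6, the Sprouty genes Spry1, Spry2 and Spry4, and the Spred genes Spred1 and Spred2. They were chosen by symbol and matched by Ensembl identifier. All 9 were found among the 49328 genes listed in the deposited table, and all 9 were high enough to be tested. Their RNA was measured by sequencing in cultured mouse cells that the labels call mesenchymal stromal cells (MSCs, the adherent stromal cells of bone marrow). The cells came from digested, unfractionated bone marrow of CB6F1 mice with acute graft-versus-host disease (aGVHD, an attack of transplanted donor immune cells on the recipient). A group of 3 libraries came from cultures that received a compound the labels name R and nothing more, at 0.5 um as they write it, and a group of 3 libraries came from cells given the vehicle, DMSO. Both groups therefore came from diseased animals, and the sources used here give neither the age of the mice, the time of treatment nor the identity of R. The labels do not say whether replicates were separate animals or cultures, so that p-values measure the spread between these libraries, which may be technical.

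ERK is the last kinase of the cascade that carries signals of growth factor receptors through RAS, RAF and MEK, and it is itself switched on by phosphorylation of a threonine and a tyrosine. Active ERK raises the transcription of its own inhibitors, so that their transcripts are commonly read as a record of recent signalling. The DUSP proteins remove both phosphates from the kinase, while Sprouty and Spred proteins act further up, between the receptor and RAF. The question put to these genes was whether their transcripts differed between R-treated cells and vehicle-treated cells.

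Of the 9 genes, Dusp5 was the only one that passed the test, and its mean in R was 2.06 times that in vehicle. Dusp6, the phosphatase most often used as a readout of ERK, was at nearly the same level in both groups. Spry4 had as large a change as Dusp5 and missed the threshold. Dusp1 stood modestly higher in R, Spred1 and Spred2 modestly lower, and the groups of Dusp4, Spry1 and Spry2 overlapped. In limma, with Benjamini-Hochberg adjustment over all 11862 genes tested, 1 of the 9 was higher in R, 0 were lower and 8 did not pass an adjusted p of 0.05. At an unadjusted p under 0.05 there were 4 (Dusp1, Dusp5, Spry4 and Spred1), beside 24% of all genes tested. After adjustment, 2.39% of all genes tested were called higher in R, 4.43% lower and 6.82% in either direction. The log2 change was positive in 6 of the 9 and negative in 3, with a median of 0.33, beside a median of -0.0037 over all genes tested. All changes are given as R minus vehicle on the scale of log2(FPKM + 1), where FPKM counts fragments relative to gene length and library size; this scale understates the changes of low genes.

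**Figure D1:**
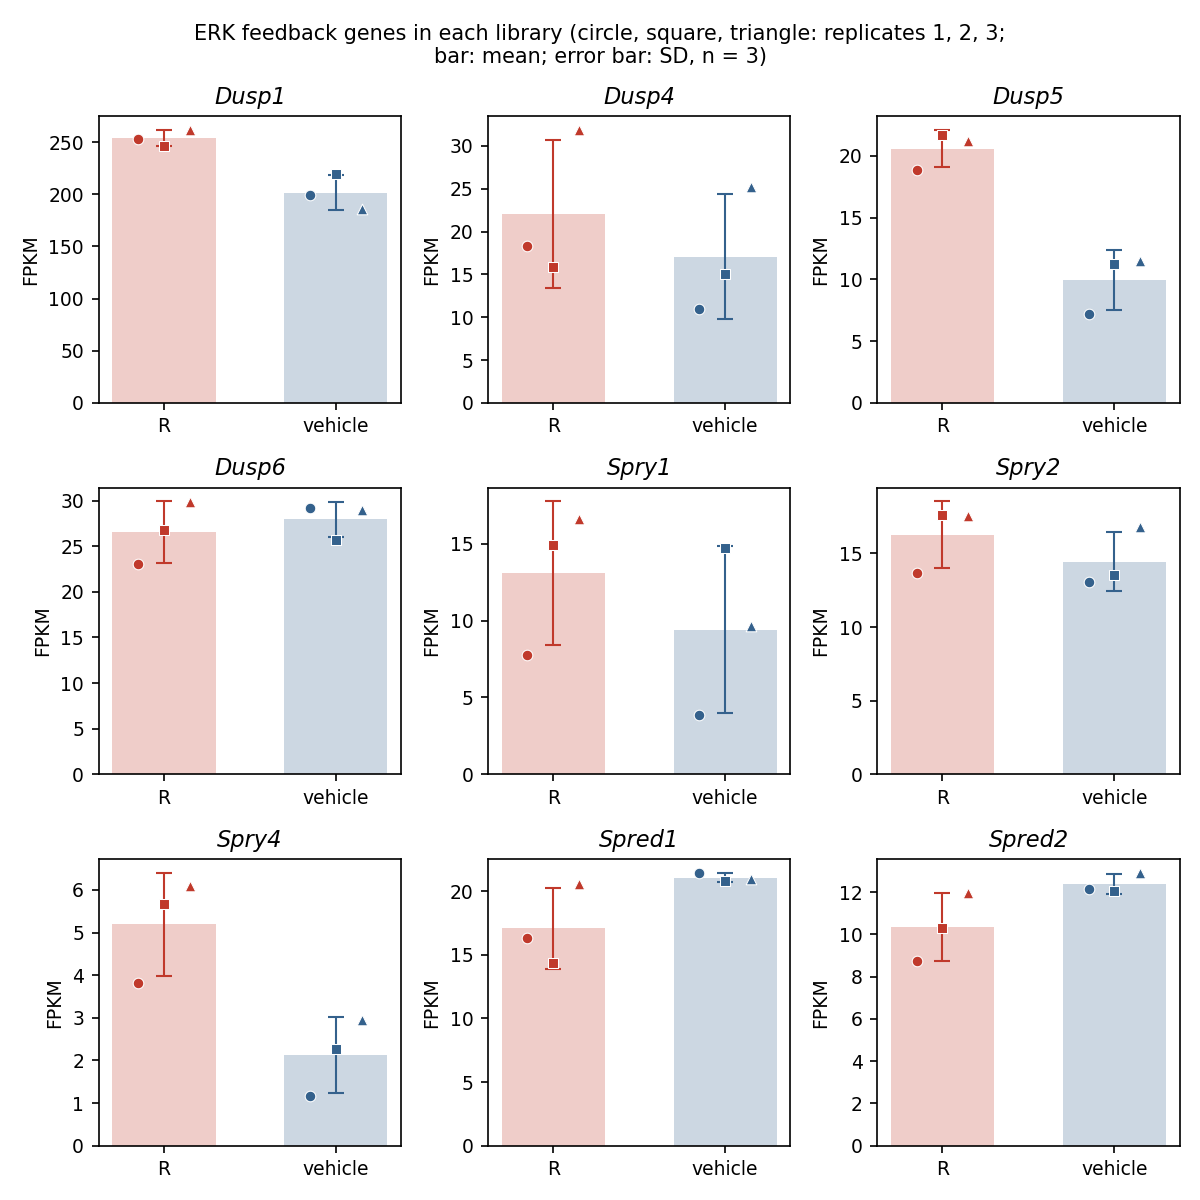
FPKM of each of the 9 genes in the 3 R and 3 vehicle libraries, each panel with its own axis from 0; symbols are libraries, bars are means and error bars the SD (n = 3). The groups do not overlap for Dusp1, Dusp5 and Spry4, which are higher in R, and for Spred1 and Spred2, which are lower in R.

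The libraries were of similar depth, estimated at 17070000 to 21750000 reads, and the 9 genes were represented by 95 to 18205 estimated reads per library. The lower end is from Spry4 and the upper from Dusp1, whose estimates were up to 0.495 and 0.373 from a whole number. The cultures held much macrophage RNA. The summed level of 18 macrophage markers was 13558 to 16806 FPKM in R libraries, against 16468 to 22001 FPKM in vehicle libraries, ranges that just overlap; Lyz2 made up most of this sum, at a mean of 10261 FPKM over the 6 libraries. Of the 18, 17 had a negative log2 change, 12 did not overlap and were lower in R, 4 were called lower and 0 higher, and the median log2 change was -0.51. Among all genes tested, 15.5% did not overlap and were lower in R, 4.43% were called lower and 2.39% higher. The 17 stromal markers summed to 1477 to 1736 FPKM in R libraries, against 588 to 1129 FPKM in vehicle libraries, without overlap. Of the 12 tested, 7 had a positive and 5 a negative log2 change, with a median of 0.57. Among the 12, 4 did not overlap and were higher in R, and 0 did not overlap and were lower. The shares of all genes tested were 13.9% and 15.5%. Sparc alone was called, higher in R. Sparc, Col1a1 and Col1a2 were the most abundant. Col1a1 had 523, 327 and 588 FPKM in R replicates 1, 2 and 3, against 127, 252 and 263 FPKM in the vehicle replicates, whereas Col3a1 averaged 22.9 FPKM in R and 26.3 FPKM in vehicle, with overlap. Eng, Pdgfrb, Prrx1, Twist1, Vcam1 and Pdgfra were also high enough to be tested and did not pass, while Thy1, Nt5e, Lepr, Dcn and Lum were under the limit for testing, and Lum was at 0 in all libraries but 1. Endothelial markers summed in R libraries to 2.94 to 6.52 FPKM, against 1.49 to 2.17 FPKM in vehicle libraries. Markers of T, B and NK cells summed in R libraries to 2.44 to 7 FPKM, against 6.29 to 9.79 FPKM in vehicle libraries. Those of neutrophils summed in R libraries to 5.99 to 9.5 FPKM, against 7.64 to 14.3 FPKM in vehicle libraries. Csf3r made up most of the neutrophil sum, at a mean of 8.16 FPKM over the 6 libraries. The neutrophil markers S100a9, Mpo and Elane were at 0 in all 6. These are bulk values, in which fewer cells of a type and less RNA per cell cannot be told apart, and the part of cell makeup in the values below was not tested.

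The order of levels was led by Dusp1 in each library. Since FPKM is scaled to gene length, levels can be set side by side. Over the 6 libraries the mean was 228 FPKM for Dusp1, 27.2 for Dusp6, 19.6 for Dusp4, 19.1 for Spred1, 15.4 for Spry2, 15.3 for Dusp5, 11.4 for Spred2, 11.2 for Spry1 and 3.66 for Spry4. Dusp1 lay above Dusp6 without overlap. Every other pair of neighbours in this order overlapped in range over the 6 libraries, so that their order is not larger than their spread; Spry1 nevertheless lay above Spry4 in 6 of 6 libraries.

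The nuclear phosphatases Dusp1, Dusp4 and Dusp5 are immediate or early induced genes. Dusp5 is held to be specific for ERK, which it dephosphorylates and anchors in the nucleus. Dusp5 (ENSMUSG00000034765; chromosome 19, 53529109 to 53542431, forward strand, GRCm38) had 18.9, 21.7 and 21.2 FPKM in R replicates 1, 2 and 3, against 7.18, 11.3 and 11.5 FPKM in vehicle replicates 1, 2 and 3. Each R library thus lay well above each vehicle library, and vehicle replicate 1 was the lowest. The means were 20.6 ± 1.51 FPKM in R and 9.98 ± 2.43 FPKM in vehicle (SD, n = 3 each), a ratio of 2.06. The log2 change was 0.999 (SE 0.17, 95% confidence interval 0.60 to 1.40) with a limma adjusted p of 0.019, and its p-value ranked 365 among those of all genes tested. The call ended without R replicate 2 (log2 change 0.96, adjusted p = 0.068) and without R replicate 3 (0.98, adjusted p = 0.063), and also when no filter on low values was applied (adjusted p = 0.070), while the change itself stayed between 0.78 and 1.11 in all alternatives tried. An antisense gene, AC137853.2, overlaps Dusp5, and since no source used here states the strandedness of the libraries, their reads cannot be told apart.

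The promoter of Dusp5 is shown because Dusp5 carried the 1 call among the 9 genes, and those of Dusp1 and Dusp6 because they encode phosphatases of the same family that did not pass. The sequences are those of RefSeq on GRCm38.p6, from 250 bases before to 50 bases after the annotated start of transcription, written 5′ to 3′ on the strand of the gene; 7 of the 9 genes had one, Dusp4 and Spry4 not. Capitals mark CArG boxes (the binding motif of serum response factor) in Dusp5, at chr19:53528895-53529194 on the forward strand. In Dusp1, at chr17:26508423-26508722 on the reverse strand, they mark the cAMP response element TGACGTCA, its core TGACG or the reverse complement, and the E-box CACGTG. In Dusp6, at chr10:99262981-99263280 on the forward strand, they mark the ETS core GGAA or its reverse complement.
Dusp5: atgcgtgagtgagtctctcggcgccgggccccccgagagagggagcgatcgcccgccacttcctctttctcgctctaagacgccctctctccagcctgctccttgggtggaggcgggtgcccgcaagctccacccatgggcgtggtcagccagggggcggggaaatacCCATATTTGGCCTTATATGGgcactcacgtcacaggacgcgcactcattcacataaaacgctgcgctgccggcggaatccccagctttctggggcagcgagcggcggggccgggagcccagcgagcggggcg
Dusp1: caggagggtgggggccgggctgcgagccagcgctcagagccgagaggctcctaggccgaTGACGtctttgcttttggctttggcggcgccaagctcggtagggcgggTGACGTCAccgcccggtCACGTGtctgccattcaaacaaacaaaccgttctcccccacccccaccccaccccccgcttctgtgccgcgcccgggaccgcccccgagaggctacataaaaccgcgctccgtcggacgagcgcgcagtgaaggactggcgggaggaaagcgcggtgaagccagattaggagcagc
Dusp6: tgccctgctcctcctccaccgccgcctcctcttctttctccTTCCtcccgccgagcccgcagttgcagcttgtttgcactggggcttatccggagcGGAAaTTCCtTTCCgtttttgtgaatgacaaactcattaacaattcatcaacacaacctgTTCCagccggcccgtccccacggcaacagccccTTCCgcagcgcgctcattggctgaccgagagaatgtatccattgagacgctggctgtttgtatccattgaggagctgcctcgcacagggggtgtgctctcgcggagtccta

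In that window Dusp5 had 2 CArG boxes side by side. A search of both strands found at least 1 CArG box in 1.63% of all 32851 RefSeq promoters of this length and in 1 of the 7 promoters of these genes; pairs of boxes were not counted. The full cAMP response element was found in Dusp1 and in 1.79% of all promoters. Its core, which the full element contains on both strands, was found in Dusp1, Dusp5 and Spred2 and in 20.8% of all promoters, and the E-box in Dusp1 and in 7.15%. The ETS core was found in all 7 and in 96.0% of all promoters, with 6 matches in Dusp6 that do not overlap. Several matches were also found in Spred1, Spred2, Spry2 and Dusp5. Those in Dusp5 and Dusp1 are not in capitals above. The number of matches was not compared with that in all promoters. The long form of the ETS core, CCGGAAGT (3.89% of all promoters), the AP-1 motif TGANTCA (7.81%) and the STAT motif TTCNNNGAA (8.30%) were in 0 of the 7 windows. A match is a run of letters and not a measured site of binding.

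Dusp1, a phosphatase that prefers the stress kinases p38 and JNK and also acts on ERK, was by far the most abundant of the 9. Dusp1 (ENSMUSG00000024190; chromosome 17, 26505590 to 26562128, reverse strand) had 253, 246 and 262 FPKM in R replicates 1, 2 and 3, against 200, 220 and 186 FPKM in the vehicle replicates. The groups did not overlap, but the gap between the lowest R and the highest vehicle library was smaller than the range of the vehicle libraries. The means were 254 ± 7.69 FPKM in R and 202 ± 16.9 FPKM in vehicle (SD, n = 3 each), a ratio of 1.26. The log2 change of 0.33 (SE 0.10, 95% confidence interval 0.11 to 0.56) did not pass (limma adjusted p = 0.089), and it did not pass in any alternative tried. The reference model of Dusp1 overlaps Ergic1 on the opposite strand, which had 33.2, 36.9 and 36.9 FPKM in R and 24.2, 27.8 and 30.8 FPKM in vehicle, and their reads cannot be told apart where they share sequence. The estimated reads of Dusp1 were up to 0.373 from a whole number, so that the gene length the authors used may differ from that of the reference, which would scale all 6 values alike.

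Dusp4, a nuclear phosphatase of ERK and JNK, varied more within the groups than between them. Dusp4 (ENSMUSG00000031530; chromosome 8, 34807297 to 34819894, forward strand) had 18.4, 15.9 and 31.9 FPKM in R replicates 1, 2 and 3, against 11, 15.1 and 25.2 FPKM in the vehicle replicates. The libraries numbered 3 were the highest of both groups, and the groups overlapped. The log2 change was 0.36 (SE 0.34, 95% confidence interval -0.43 to 1.15; limma adjusted p = 0.57), an interval that holds both no change and one as large as that of Dusp5. It was 0.075 without R replicate 3 and 0.67 without vehicle replicate 3.

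Dusp6 encodes a cytoplasmic phosphatase with high selectivity for ERK. Dusp6 (ENSMUSG00000019960; chromosome 10, 99263231 to 99267489, forward strand) had 23.1, 26.7 and 29.8 FPKM in R replicates 1, 2 and 3, against 29.2, 25.7 and 28.9 FPKM in the vehicle replicates. The groups overlapped over most of their range. With means of 26.5 ± 3.37 FPKM in R and 27.9 ± 1.95 FPKM in vehicle (SD, n = 3 each), the log2 change was -0.08 (SE 0.11; limma adjusted p = 0.74). Its 95% confidence interval ran from -0.34 to 0.19 and so did not hold a change of the size seen in Dusp5. The sign was not stable, since the value was 0.017 without R replicate 1.

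**Figure D2:**
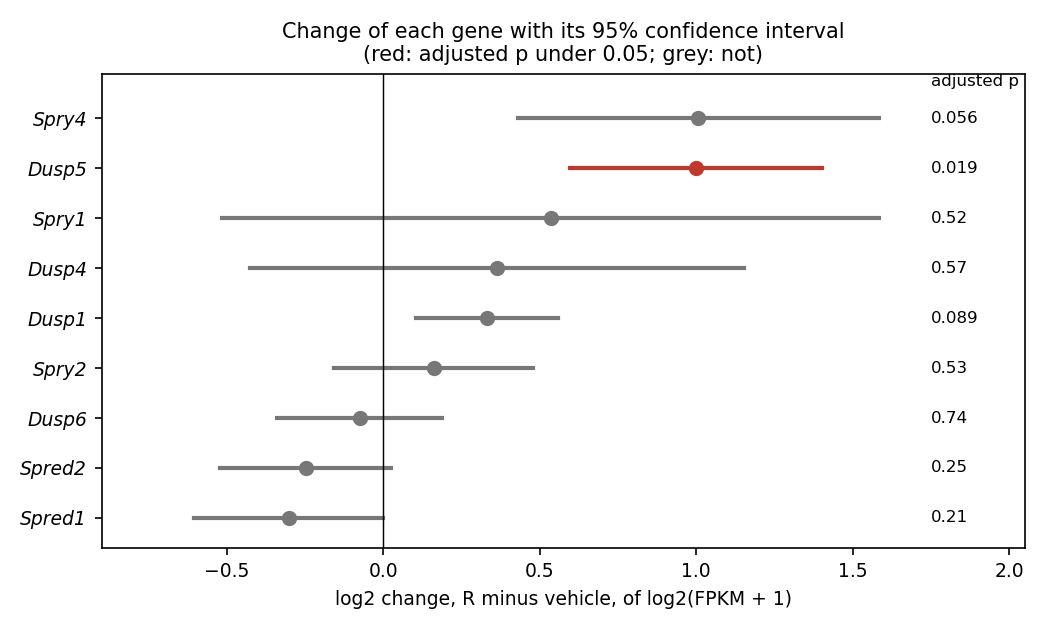
Log2 change (R minus vehicle, of log2(FPKM + 1)) of each gene as a point with its 95% confidence interval, ordered from the highest at the top, with the limma adjusted p at the right. The interval of Dusp5 runs from 0.60 to 1.40 and that of Spry4 from 0.43 to 1.58, while those of Dusp4, Dusp6, Spry1, Spry2 and Spred2 cross 0.

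Sprouty proteins are membrane-associated inhibitors that hold back RAS and RAF activation below receptors such as those of FGF. Spry4 was the least abundant and had the largest ratio of the 9. Spry4 (ENSMUSG00000024427; chromosome 18, 38586247 to 38601415, reverse strand) had 3.82, 5.67 and 6.09 FPKM in R replicates 1, 2 and 3, against 1.18, 2.27 and 2.95 FPKM in the vehicle replicates. The groups did not overlap, though vehicle replicate 3 came near R replicate 1. The means were 5.19 ± 1.21 FPKM in R and 2.13 ± 0.90 FPKM in vehicle (SD, n = 3 each), a ratio of 2.44. The log2 change of 1.01 (SE 0.24, 95% confidence interval 0.43 to 1.58) missed the threshold (limma adjusted p = 0.056). The gene passed in 5 of 14 alternatives, among them the fit without vehicle replicate 3 (log2 change 1.20, adjusted p = 0.037) and those with quantile normalization (1.03, adjusted p = 0.048), a pseudocount of 5 (0.52, adjusted p = 0.049) and sample weights (0.76, adjusted p = 0.036). Its estimated reads, 95 to 523 per library, were up to 0.495 from a whole number, as for Dusp1. Gm27369 and Gm27804 overlap Spry4 on the opposite strand, and reads cannot be told apart where they share sequence. Gm27369 had 0.648 FPKM in R replicate 1 and 0 in every other library, and Gm27804 had no value here.

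Spry1, another Sprouty gene, had the largest SE of the 9. Spry1 (ENSMUSG00000037211; chromosome 3, 37639947 to 37644598, forward strand) had 7.78, 14.9 and 16.6 FPKM in R replicates 1, 2 and 3, against 3.83, 14.7 and 9.65 FPKM in the vehicle replicates. The libraries numbered 1 were the lowest of both groups, and the groups overlapped. The log2 change was 0.53 (SE 0.45, 95% confidence interval -0.51 to 1.58; limma adjusted p = 0.52). It was 0.06 without vehicle replicate 1, and with sample weights the value turned to -0.21. Gm42922 overlaps Spry1 on the opposite strand and had at most 0.0564 FPKM in any library.

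Spry2, the best studied Sprouty gene, differed little between the groups. It (ENSMUSG00000022114; chromosome 14, 105891947 to 105896819, reverse strand) had 13.7, 17.6 and 17.5 FPKM in R replicates 1, 2 and 3, against 13.1, 13.5 and 16.8 FPKM in the vehicle replicates. The groups overlapped, and the log2 change was 0.16 (SE 0.14, 95% confidence interval -0.16 to 0.48; limma adjusted p = 0.53).

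Spred proteins bind RAS and RAF and recruit neurofibromin, the RAS inhibitor encoded by Nf1, to the membrane. Both Spred genes of the 9 lay lower in R than in vehicle, opposite in sign to the Sprouty genes, and neither passed. Spred3, which is outside the 9, lay higher in R without overlap and did not pass either (log2 change 0.31, limma adjusted p = 0.19). Spred1 (ENSMUSG00000027351; chromosome 2, 117121374 to 117182279, forward strand) had 16.3, 14.4 and 20.5 FPKM in R replicates 1, 2 and 3, against 21.4, 20.8 and 20.9 FPKM in the vehicle replicates. The vehicle libraries were nearly equal, and R replicate 3 lay just below them. The log2 change was -0.30 (SE 0.13, 95% confidence interval -0.60 to -0.00034; limma adjusted p = 0.21). Spred2 (ENSMUSG00000045671; chromosome 11, 19924375 to 20024026, forward strand) had 8.75, 10.3 and 12 FPKM in R replicates 1, 2 and 3, against 12.2, 12.1 and 12.9 FPKM in the vehicle replicates. R replicate 3 again came close to the vehicle libraries without reaching them, and the log2 change was -0.25 (SE 0.12, 95% confidence interval -0.52 to 0.03; limma adjusted p = 0.25). With sample weights both passed (-0.33 and -0.36, adjusted p = 0.029 for each).

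In all, the groups did not overlap in 5 of the 9 genes, with 3 higher and 2 lower in R. Among all genes tested the groups did not overlap in 29.3%, with 13.9% higher and 15.5% lower in R.

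**Figure D3:**
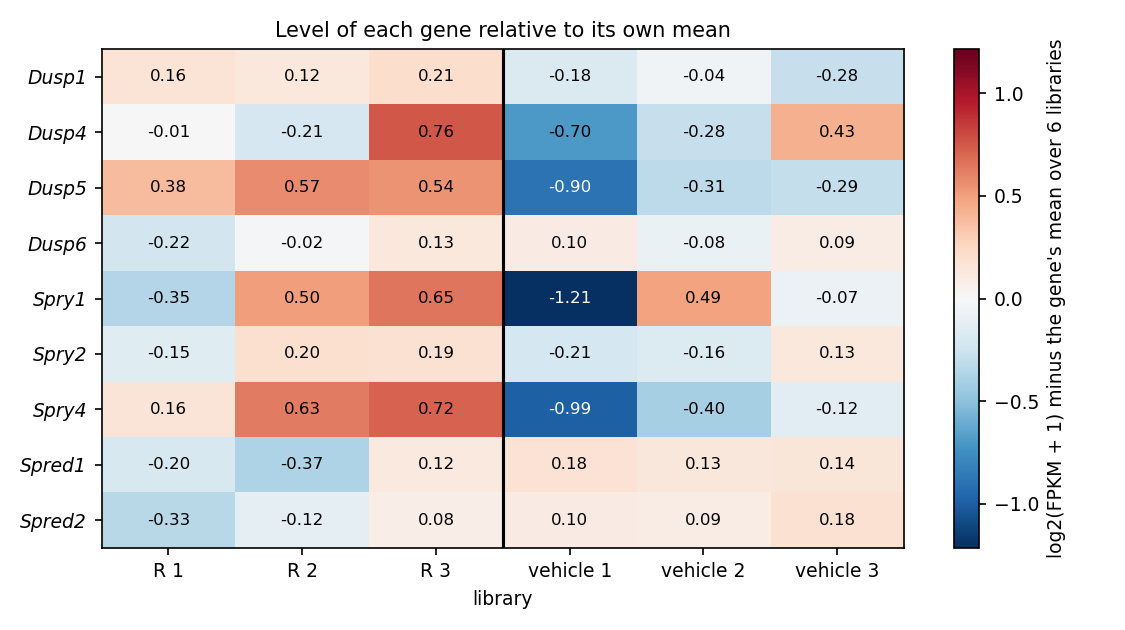
Level of each gene (rows) in each library (columns) as log2(FPKM + 1) minus the gene's own mean over the 6 libraries; red is above and blue below that mean. Dusp5 and Spry4 are red in the 3 R libraries and blue in the 3 vehicle libraries, whereas Dusp4 is highest in the libraries numbered 3 and Spry1 lowest in those numbered 1.

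Since the 9 genes did not move as 1 block, pairs of relatives were set against each other within each library; these 2 pairs were chosen after their values were seen. The ratio of Dusp5 to Dusp6 FPKM was 0.817, 0.811 and 0.712 in R replicates 1, 2 and 3, against 0.246, 0.439 and 0.398 in the vehicle replicates. The ratio of Spry4 to Spry2 was 0.279, 0.322 and 0.348 in R, against 0.0900, 0.168 and 0.176 in vehicle. Neither ratio overlapped between the groups, with log2 differences of 1.15 and 1.18. A two-sided exact permutation test gave p = 0.10 for each (adjusted p = 0.10 over the 2 pairs), the smallest that 3 libraries against 3 can give. As the pairs were picked on these same values, and the adjustment leaves out the pairs not picked, no conclusion is drawn from this test.

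The genes most like each of the 9 were sought by Pearson's r of log2(FPKM + 1) over the 6 libraries, among 7147 genes with a mean of at least 5 FPKM. As the best of so many candidates over so few libraries, they are given as a description. Dusp5 was most like Fkbp14, Fam114a1 and Rras2 (r = 0.997 for each), and Rras2 encodes a small GTPase related to RAS. Spry4 was most like Calu (0.999), Cep170b (0.998) and Gna11 (0.997). The genes nearest to Dusp1 were Fgf2 (0.989), the basic fibroblast growth factor, Thbs1 (0.985) and Pofut2 (0.984). Those nearest to Dusp4 were Ly75, F8a and Atp6v0a2, and those nearest to Dusp6 were Orc3, Sf3a1 and Thbs2. For Spry1 they were Epas1, Palld and Cbx6, for Spry2 Rraga, St6galnac6 and Ddit4, for Spred1 Nfatc3, Rbl1 and Prrc2a, and for Spred2 Atp2a3, Chtop and Anln. No gene was named for more than 1 of the 9, and none of the 9 was among the genes named for another. Spry4, at a mean of 3.66 FPKM, could not be a candidate, and only 3 genes were named for each. Whether the 9 genes vary together therefore cannot be read from these names.

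Around these inhibitors, 97 further genes of the pathway were grouped in 7 lists, from ligands to targets. Of these, 81 were tested, and 7 were called higher and 1 lower in R. Among all genes tested, 2.39% were called higher and 4.43% lower. The median log2 change of the 81 was 0.09.

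The ligands held 4 of the 7 rises. Of 23 listed growth factors 16 were tested, and Fgf2, Hbegf, Ereg and Pdgfa rose, 0 fell and 12 did not pass (median log2 change 0.15). These 4, Fgf7 and Csf1 had an unadjusted limma p under 0.05, beside 24% of all genes tested. Hbegf, an EGF family ligand shed from the membrane, had 30, 28.6 and 20.6 FPKM in R replicates 1, 2 and 3, against 7.70, 8.12 and 10.9 FPKM in the vehicle replicates (log2 change 1.46, limma adjusted p = 0.0047). Fgf2 had 18.2, 16.3 and 20 FPKM in R, against 4.67, 8.11 and 4.31 FPKM in vehicle (log2 change 1.56, limma adjusted p = 0.0071). Both calls held in each alternative tried. Ereg, another EGF family ligand, had 5.91, 7.42 and 10.7 FPKM in R, against 1.90, 1.54 and 3.85 FPKM in vehicle (log2 change 1.42, limma adjusted p = 0.031). Pdgfa, a ligand of the PDGF receptors, had a log2 change of 0.74 (limma adjusted p = 0.021). Csf1, the macrophage growth factor and the most abundant ligand of the list, had 192, 278 and 274 FPKM in R, against 141, 167 and 202 FPKM in vehicle, and did not pass (log2 change 0.54, limma adjusted p = 0.14).

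Of 17 receptor tyrosine kinases 11 were tested, and Axl alone rose (median log2 change 0.36). Axl, Pdgfrb, Ddr2 and Erbb2, all higher in R, had an unadjusted limma p under 0.05, beside 24% of all genes tested. Axl, a receptor of the ligand Gas6, had 83.8, 94.1 and 96.6 FPKM in R replicates 1, 2 and 3, against 65.9, 64.5 and 65.1 FPKM in the vehicle replicates (log2 change 0.48, limma adjusted p = 0.023). The EGF receptor gene Egfr was under the limit for testing, at 0.938, 0.972 and 0.899 FPKM in R and 0.528, 0.660 and 1.01 FPKM in vehicle. Csf1r, the receptor of Csf1 and a macrophage marker, was the most abundant receptor and did not pass (log2 change -0.30, limma adjusted p = 0.25).

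In the body of the cascade 0 of 18 genes rose or fell in limma, with 4 at an unadjusted p under 0.05 (Mapk3, Ptpn11, Rps6ka1 and Rps6ka3) beside 24% of all genes tested, and the median log2 change was -0.04. Mapk3, which encodes ERK1 and was the most abundant, had 140, 149 and 134 FPKM in R replicates 1, 2 and 3, against 112, 117 and 110 FPKM in the vehicle replicates. It did not overlap between the groups but did not pass (log2 change 0.32, limma adjusted p = 0.070), though it did with quantile normalization (adjusted p = 0.042) and with sample weights (adjusted p = 0.018). Of 7 RAS GTPase-activating and RAF-inhibiting genes 0 were called in limma and 0 had an unadjusted p under 0.05 (median 0.04); the most abundant, the RAF inhibitor Pebp1, had a log2 change of 0.31 (adjusted p = 0.30) and passed without vehicle replicate 3 (0.50, adjusted p = 0.047).

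Among the inhibitors outside the 9, Dusp8 and Lrig1 rose. Of 6 further MAP kinase phosphatases 1 rose and 5 did not pass (median log2 change 0.12). Dusp8, a phosphatase of JNK and p38, had 2.10, 2.53 and 2.73 FPKM in R replicates 1, 2 and 3, against 0.914, 1.29 and 1.21 FPKM in the vehicle replicates (log2 change 0.69, limma adjusted p = 0.026). Dusp7, a cytoplasmic phosphatase of ERK like Dusp6 and the most abundant of the list, had a log2 change of 0.06 (limma adjusted p = 0.81). Of 6 further inhibitors of receptor tyrosine kinases 4 were tested, 1 rose and 3 did not pass (median 0.29). In these 2 lists Dusp8, Lrig1 and Spred3, all higher in R, had an unadjusted limma p under 0.05, beside 24% of all genes tested. Lrig1, a membrane protein that promotes the loss of EGF receptors, had 4.86, 3.86 and 4.62 FPKM in R, against 2.49, 2.73 and 3.12 FPKM in vehicle (log2 change 0.53, limma adjusted p = 0.043). Errfi1, an inhibitor of EGF receptors, had a log2 change of -0.28 (limma adjusted p = 0.75), which was 0.13 without R replicate 1. Spry3 was not analysed here.

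Of 20 genes known to be induced by ERK, 19 were tested, 0 rose, 1 fell and 18 did not pass (median log2 change 0.19). Fos, Fosl1, Phlda1, Epha2 and Hmga2, higher in R, had an unadjusted limma p under 0.05, as did Plau and Etv5, lower in R. That limit was met by 24% of all genes tested. Hmga2 had 17.9, 23.2 and 22.4 FPKM in R, against 7.35, 9.17 and 15.7 FPKM in vehicle (log2 change 0.97, limma adjusted p = 0.064). Plau, the urokinase gene, had 34.8, 36.8 and 46.1 FPKM in R replicates 1, 2 and 3, against 96.5, 67.8 and 87.1 FPKM in the vehicle replicates (log2 change -1.07, limma adjusted p = 0.011), and the call held in each alternative tried. Fos, an immediate early transcription factor and the most abundant of the list, had 287, 257 and 266 FPKM in R, against 227, 220 and 175 FPKM in vehicle, and did not pass (log2 change 0.39, limma adjusted p = 0.11). The receptor gene Epha2, named here after its values were seen, had the largest positive change of the list, 1.24 (limma adjusted p = 0.054), and 14.6, 16.2 and 20.3 FPKM in R, against 4.65, 5.09 and 11.5 FPKM in vehicle. Etv5, a transcription factor that is often read together with Dusp6 and was likewise named after its values were seen, had 17.8, 21 and 22 FPKM in R, against 26.6, 26.4 and 22.8 FPKM in vehicle (log2 change -0.31, limma adjusted p = 0.14).

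The calls of Dusp8, Lrig1, Pdgfa, Ereg and Axl each ended on leaving out any of several libraries, while the changes stayed of similar size. They ended without R replicate 2, vehicle replicate 1 or vehicle replicate 2 for all 5. They also ended without R replicate 1 for Lrig1 and Pdgfa, and without R replicate 3 for Dusp8, Lrig1, Ereg and Axl. The highest adjusted p on leaving out a library was 0.093 for Dusp8, 0.16 for Lrig1, 0.071 for Pdgfa, 0.11 for Ereg and 0.088 for Axl. The log2 changes then ran from 0.61 to 0.77 for Dusp8, from 0.47 to 0.60 for Lrig1 and from 0.64 to 0.83 for Pdgfa. For Ereg they ran from 1.21 to 1.70, and for Axl from 0.44 to 0.54. Without a filter on low values the calls of Dusp8, Lrig1, Pdgfa and Ereg also ended (adjusted p = 0.097, 0.12, 0.067 and 0.10).

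**Figure D4:**
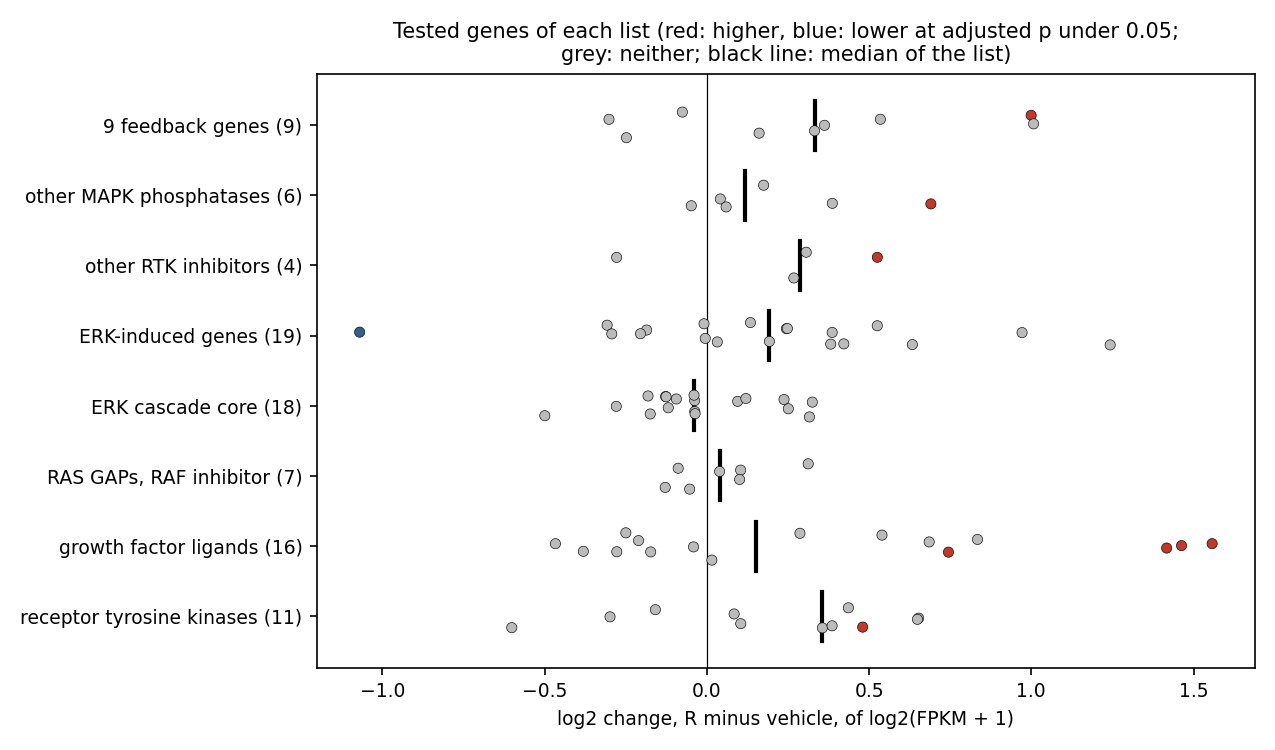
Log2 change (R minus vehicle, of log2(FPKM + 1)) of each tested gene, a point each, in the 9 feedback genes at the top and in the 7 pathway lists, with the number tested in brackets and the list median as a black line. Ligands hold 4 of the red points, and the medians run from -0.04 in the cascade core to 0.36 in the receptor tyrosine kinases.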

How the data were processed

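RNA of 6 libraries, 3 of R and 3 of vehicle, grouped by sample title, was analysed from 1 deposited table. Its values are FPKM that the authors computed; per the submitters' processing notes, edgeR 3.18.1 was used on the GRCm38 (mm10) build. For the aligner, counter, annotation and strandedness, nothing is stated in the sources used here. The last line broke off and was left out. Symbols, coordinates and exon lengths came from GENCODE M21 (49281 of 49328 identifiers matched). Depth was estimated from low values, which were whole multiples of 1 read (tolerance 0.02 reads) for 98.3% to 98.4% of values under 20.5 reads; a gene of 1 kb with 3 reads has 0.138 to 0.176 FPKM. These read numbers cover counting error only.

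Genes with at least 1 FPKM in at least 3 libraries (11862) were tested as log2(FPKM + 1) with limma 3.58.1 (R 4.3.3): a 2-group linear model, trended empirical Bayes and Benjamini-Hochberg adjustment over all of them, with a threshold of 0.05. Errors are moderated standard errors (SE). The fit was tested on simulated reads that had the same dispersion for all genes and no variation shared by the genes of a library. That test therefore does not cover spread that differs between genes or is shared within a library. The 9 genes and the lists were chosen with earlier results of these data known. From each pathway list the text names the called genes (at most 5 by p) and the most abundant one; marker genes and the others it names were chosen after their values were seen. Alternatives were other pseudocounts, filters, scalings and variance models, a replicate block, and leaving out each library.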

Additional observations from a re-analysis of the deposited data

How the results depend on the processing

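Of the 9 genes, Dusp1, Dusp4 and Spry2 kept their sign and did not pass in any of the 15 alternatives, and Dusp5 kept its sign in all 15 and its call in 12. Without a filter on low values Dusp5 had a log2 change of 0.9995 (adjusted p = 0.070), and on leaving out libraries the change ran from 0.80 (without vehicle replicate 1) to 1.11 (without vehicle replicate 3). Spry4 passed with a pseudocount of 5 (0.52), quantile normalization (1.03), sample weights (0.76) and the replicate block (1.01, adjusted p = 0.012), and ran from 0.77 to 1.20 on leaving out libraries; it was too low for the stricter filter of 5 FPKM. With sample weights Spred1 (-0.33) and Spred2 (-0.36) passed and Spry1 turned to -0.21. On leaving out libraries Dusp6 ran from -0.16 to 0.017, Dusp4 from 0.075 to 0.67, Spry2 from 0.097 to 0.27, Spred1 from -0.44 to -0.19 and Spred2 from -0.35 to -0.14. Dusp7 turned to -0.020 with sample weights and to -0.035 without R replicate 3, and Errfi1 ran from -0.60 to 0.13 on leaving out libraries.

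The number of the 9 called higher was 2 with a pseudocount of 5, quantile normalization, sample weights and the replicate block, 0 without a filter, and 0 (without R replicate 2 or 3) to 2 (without vehicle replicate 3) on leaving out libraries; 2 were called lower with sample weights. In the 7 pathway lists the count higher was 3 without a filter, 13 with sample weights and 2 to 11 on leaving out libraries, and the count lower was 5 with sample weights. Among all genes 65 were called higher and 279 lower without a filter, 1114 and 1346 with sample weights, and 63 to 352 and 272 to 527 on leaving out libraries. The cause of these shifts was not tested.

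The labels do not say whether equal replicate numbers pair the libraries. Over all genes tested, deviations from the group means correlated at 0.14, -0.01 and -0.03 for numbers 1, 2 and 3. For unequal numbers they correlated at -0.14 to 0.14, and 3 libraries a group are too few to decide on pairing. The replicate block lowered the SE of Dusp4 from 0.34 to 0.14 and of Spry1 from 0.45 to 0.18. It raised that of Dusp1 from 0.096 to 0.109 and of Dusp6 from 0.112 to 0.115. With the replicate block the calls of Lrig1, Pdgfa and Axl ended (adjusted p = 0.073, 0.051 and 0.050). Dusp4 and Spry1 had the largest SE of the 9 genes, at 515 to 1578 and 190 to 871 estimated reads per library. Spry4 had a smaller SE at fewer estimated reads, 95 to 523, though its estimates were up to 0.495 from a whole number.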
